A study of Mus musculus with 26 samples.

Results

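The step from day 2 to day 4 of induction was followed in control primordial germ cell-like cells (PGCLCs) of the mouse. All 53978 genes of the table that holds these libraries were candidates, and the 16605 with a mean value of at least 1 over its 10 libraries were kept and tested. The comparison itself rested on 4 of the 26 libraries of the series, 2 from day 2 and 2 from day 4, all given the solvent DMSO. The PGCLCs were derived from epiblast-like cells (EpiLCs) of strain 129Sv/J, and the labels give replicate numbers without saying whether the replicates were separate cultures. P-values therefore measure the spread between libraries of a group, taken over the 5 groups of the table, and this spread may be technical. The same table holds 2 EpiLC libraries, labelled untreated, and 2 libraries each from day 2 and day 4 PGCLCs given dTAG13 at 500 nM. dTAG13 is a small molecule that recruits a tagged protein for breakdown, here used in a study of the protein Tex10. The DMSO cells belong to that experiment as its solvent control, and the labels do not say whether they carry a tagged Tex10. A separate table holds 12 libraries from 3 untreated lines of the same strain, 1 with an empty vector and 2 clones that overexpress Tex10, as EpiLCs and at days 2, 4 and 6. Each line has 1 library per stage. These are called the vector lines here. Mouse testis libraries of the series were not used. The labels name no cell sorting, so each library is treated as bulk RNA, in which fewer cells of a type and less RNA per cell cannot be told apart.

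In the embryo, primordial germ cells arise from the epiblast when BMP and WNT signals act on cells that have passed from naive to formative pluripotency. In culture, naive embryonic stem cells are first turned into EpiLCs, which resemble the formative epiblast, and these are aggregated with BMP4 to give PGCLCs. The transcription factors Prdm1 (Blimp1), Prdm14 and Tfap2c (AP2γ) carry out the specification. They silence somatic genes, bring back several genes of naive pluripotency and lower the enzymes that place new DNA methylation.

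Library depth and quality were read before any gene. Reads recovered from the deposited values came to 6662524 and 6119730 in the day 2 libraries and 8072009 and 8293878 in the day 4 libraries, and 3 reads corresponded to a value between 0.299 and 0.407. Such floors cover counting error only. Values are CPM over a library size that TMM, edgeR's between-library factor, has adjusted, and are called TMM-scaled CPM here. Day 4 replicate 2 stood apart from the other 3 libraries. It detected 28687 genes, against 23860 to 23999 in the others and 26078 to 28809 in the 4 dTAG13 libraries. Mitochondrial genes made up 2.97% of its values, against 4.95% in day 4 replicate 1 and 3.42% and 4.57% at day 2. The chi-square per gene between replicates was 14.7 at day 4 and 5.0 at day 2, and the Pearson correlation of log2 values across genes, which are not independent replicates, was 0.985 and 0.988. The count of all called genes and those of several gene lists are given with and without this library. Tex10 itself, the targeted gene of the series, was at 106 and 113 at day 2 and 109.5 and 105 at day 4 and did not pass the test (log2 fold change -0.03, limma adjusted p 0.93).

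Between day 2 and day 4 the control cells raised 405 genes and lowered 511. Together these 916 genes are 5.52% of those tested, 2.44% higher and 3.08% lower. A gene was called at a Benjamini-Hochberg adjusted p under 0.05 in limma, fitted to log2(value + 1) over the 10 libraries, and fold changes below are on that scale, which understates the change of low genes. Of the called genes 90 rose and 265 fell by at least 1 on the log2 scale, which is 0.542% and 1.60% of the tested genes, and 1 rose and 31 fell by at least 2. The single gene above 2, named after its values were seen, was Nkx6-3, a homeobox gene, which went from 1.38 and 0.95 at day 2 to 8.05 and 8.07 at day 4. Its log2 fold change was 1.08 with a pseudocount of 5, and with a pseudocount of 0.1 it was 2.71 and Nkx6-3 was not called (adjusted p 0.0837). In 915 of the 916 genes both day 4 libraries lay beyond both day 2 libraries, the exception being the pseudogene Rps24-ps3, which lost its call without day 2 replicate 1 or day 4 replicate 2. Among all tested genes both day 4 libraries were above both day 2 libraries in 26.4% and below them in 19%. The median over all tested genes was 0.04. Leaving out day 2 replicate 1 lowered the count to 489 and leaving out day 2 replicate 2 to 425, while 735 genes were called without day 4 replicate 2 and 1104 without day 4 replicate 1. The split into higher and lower also moved with the scaling, from 44.2% higher on the deposited scale to 36.8% after median-ratio scaling and 37.3% after quantile normalization. With a pseudocount of 5 it was 50.9% of 904 called genes, so that the majority turned to increases.

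**Figure D1:**
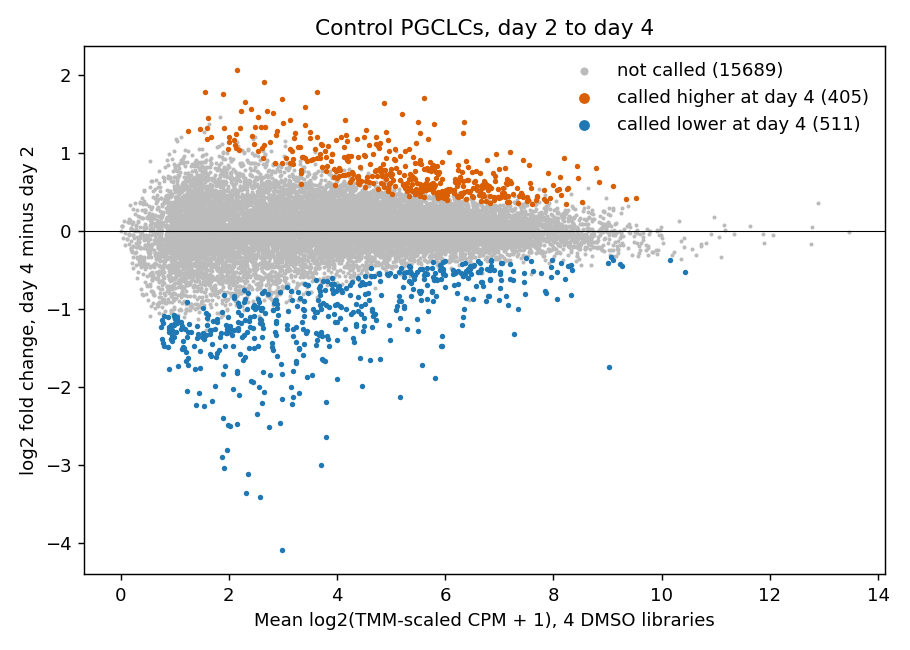
Change from day 2 to day 4 against level in control PGCLCs. Each point is 1 of the 16605 tested genes. The horizontal axis is the mean of log2(value + 1) over the 4 DMSO libraries and the vertical axis the log2 fold change, day 4 minus day 2. Orange points are the 405 genes called higher and blue points the 511 called lower, and the lower points reach further from 0 than the upper ones.

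The increases named here are among the largest or have the lowest adjusted p-values, and no class of genes was tested among them. Ly75, an endocytic receptor known from dendritic cells, rose from 24.7 and 27.5 at day 2 to 81.1 and 95.1 at day 4 (log2 fold change 1.71, standard error 0.175, limma adjusted p 1.95e-06). Both day 4 libraries were far above both day 2 libraries, which in turn were near the EpiLC values of 21.3 and 19.2. Kank4, a gene of the Kank family that links adhesions to the cytoskeleton, rose from 19.2 and 22.5 to 64.5 and 57.9 (log2 fold change 1.51), and Tns1, a focal adhesion protein, from 36.6 and 30.1 to 80.1 and 95.9 (1.37). Kdelr3, a receptor that returns proteins to the endoplasmic reticulum, went from 1.89 and 2.58 to 11.6 and 10.8 (1.92). Islr2, a membrane protein with leucine-rich repeats, went from 5.53 and 5.70 to 24 and 20.0 (1.79), and Rapgef3, an exchange factor activated by cyclic AMP, from 3.14 and 3.66 to 10.4 and 16.9 (1.70). All 6 genes were below 100 at day 4. Enzymes of the group were Elovl7, which elongates fatty acids (1.59), Hal, which breaks down histidine (1.54), and Cpe, which trims peptide hormones (1.52). The host gene of miR-124a-1, Mir124a-1hg, rose by 1.65, the adaptor She by 1.57, Tmem151b by 1.43 and Xaf1 by 1.43. Aff1, a scaffold of the super elongation complex, rose from a higher level, 86.8 and 85.2 to 158 and 187 (0.99), and Atp1b2, a subunit of the sodium pump, went from 30.2 and 27.8 to 70.2 and 71.1. Left-out libraries ended the call of Tmem151b (adjusted p up to 0.134) and Xaf1 (adjusted p up to 0.121) without either day 2 library or day 4 replicate 1, and Hal (adjusted p up to 0.126) without day 2 replicate 2.

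Many of the largest decreases ended at values of a few reads, and several were in transcription factors of development. Sox11, a factor of neural and mesenchymal progenitors at chr12:27334264-27342574 on the minus strand (GENCODE vM21 annotation, GRCm38), fell from 32.7 and 39.1 to 2.90 and 4.38 (log2 fold change -3.0, standard error 0.186, limma adjusted p 3.5e-09), after 82.1 and 87.7 in EpiLCs. Each stage was thus below the one before, with no overlap of libraries. Zfp608, a zinc finger protein, fell from 16.6 and 20.4 to 0.752 and 0.896 (-3.41, adjusted p 3.63e-09). Wt1, the Wilms tumour factor of the gonad and kidney, had 103 and 103 in EpiLCs, 15.5 and 12.8 at day 2 and 0.215 and 1.49 at day 4 (-3.11). Vrtn, known for its role in vertebral number, went from 8.55 and 11.3 to 0.322 and 0.299 (-3.05), the latter being 3 reads in each library. Has2, which makes hyaluronan, did not follow that course: it had 3.68 and 6.20 in EpiLCs, 12.8 and 17.4 at day 2 and 0.43 and 0.697 at day 4 (-3.36), so that day 2 was its highest stage. Frem2, a basement membrane protein, was also highest at day 2, while its EpiLC and day 4 libraries overlapped, with 4.31 and 7.09, 25.3 and 32.6 and 4.83 and 6.17 (-2.20). Aff3, a relative of Aff1, fell by 2.46 on the log2 scale while Aff1 rose, and Slc23a1, which carries vitamin C, went from 20.1 and 17 to 2.58 and 3.88. Chst15, a chondroitin sulfotransferase, fell from 9.06 and 9.77 to 0.859 and 0.896. Its annotated span lies within that of Fgfr2 on the same strand, which fell from 16.3 and 19.8 to 3.33 and 3.39. The Fgfr2 span, chr7:130162451-133123350, is long and also overlaps many other tested genes, on either strand, among them Ate1, Tacc2, Bub3 and Oat. Spans on the same strand also overlap for Prtg with A730062M13Rik, Hoxa3 with Hoxa5, Lef1 with Gm42449, Sox2 with Sox2ot, Tdrd12 with Gm18558, and Rian and Mirg with small RNA genes. Spans on opposite strands overlap for Kdelr3 with Ddx17, Slc23a1 with Paip2, Kank4 with Kank4os, Tbx3 with Tbx3os1, Igf2 with Igf2os, Tagln with Pcsk7 and Dnmt3l with Aire. The same is so for Ccnd3 with Bysl, Eomes with Gm33460, Fzd5 with Gm38058, Gbx2 with D130058E05Rik, Grhl2 with Gm16136, Manba with Oaz2-ps, Otx2 with Otx2os1, Tex10 with Invs, Usp29 with Zim3 and Plxdc1 with Gm11633. Whether exons are shared was not examined and the strand setting of the counting is not given in the sources used here, so the values of these genes are uncertain to that extent. The lowest fold change of all, -4.10, was in the predicted gene Gm29895 (44.3 and 49.5 to 0.215 and 1.99), named after its values were seen. Among the lowest adjusted p-values, Gja1, the gap junction protein connexin 43, went from 97.8 and 105 to 34 and 37.7 (-1.47, adjusted p 2.64e-08). Prtg, a receptor-like protein of the early epiblast and neural tissue, went from 58.7 and 93.1 to 16.3 and 16 (-2.13).

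The germ cell markers were checked next, since the libraries are labelled as PGCLCs. Prdm1 had 21.5 and 24.4 in EpiLCs, 51.2 and 46.4 at day 2 and 49.8 and 39.4 at day 4. Prdm14 was at 8.87 and 6.65, then 36.5 and 34.6 and 49 and 44.2, and Nanos3, a translational repressor that germ cells need to survive, at 3.30 and 3.43, 9.43 and 11.1 and 10.5 and 16.6. These 3 did not pass the test from day 2 to day 4 (limma adjusted p 0.77, 0.356 and 0.52). Tfap2c, at 2.28 and 4.99 in EpiLCs, was at 104 and 90.9 at day 2 and fell to 59.8 and 51.8 at day 4 (-0.79, adjusted p 0.00991). Tfap2c was thus highest at day 2, with no overlap between stages. Kit, the receptor on migrating germ cells, rose from 50.3 and 51 to 128 and 117 (1.26, adjusted p 0.000119), and Lin28a, an RNA-binding protein, fell from 291 and 303 to 182 and 166 (-0.77). Dppa3 (Stella), which marks later PGCLCs, was low, at 1.89 and 2.31 and 1.07 and 1.10. Of 19 tested genes in the list of specifiers and early markers, 1 rose (Kit) and 4 fell (Tfap2c, Lin28a, Esrp1 and Pdpn), and the list median was -0.20. Without day 4 replicate 2 the list had 1 higher and 2 lower. Of 29 tested genes of later germ cells, 1 rose and 2 fell, against 2.44% and 3.08% of all tested genes. They were Tuba3a, a testis tubulin (23 and 23.1 to 48.1 and 41.2), and the piRNA pathway genes Tdrd12 (50.6 and 43.3 to 25.9 and 30.5) and Tdrd5 (5.16 and 4.61 to 0.322 and 1.99). Dazl, an RNA-binding protein of committed germ cells, had 12.6 and 16.3 at day 2 and 25 and 20.4 at day 4 and missed the threshold (0.62, adjusted p 0.0614). With 1 library left out, the call did not hold for Tfap2c (adjusted p up to 0.108) without day 2 replicate 1 or day 4 replicate 2, Pdpn (adjusted p up to 0.11) without day 2 replicate 2 or day 4 replicate 2, and Tuba3a (adjusted p up to 0.119) without either day 2 library or day 4 replicate 1. A further loss was that of Tdrd12 (adjusted p up to 0.0807) without day 2 replicate 1, and Tdrd5 (adjusted p up to 0.0936) without day 2 replicate 1 or day 4 replicate 1.

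Each gene of the naive pluripotency list that passed the test rose from day 2 to day 4. Of 24 tested members 10 were called higher, against 2.44% of all tested genes, none was called lower, and all 24 fold changes were above 0, with a median of 0.38 against 0.04 over all tested genes. All gene lists of this report were chosen with earlier results of these data known, so their counts are descriptions and not tests. Klf4, a factor of the naive network at chr4:55527143-55532466 on the minus strand, rose from 106 and 97.3 to 223 and 192 (1.02, standard error 0.129, limma adjusted p 2.58e-05). Tbx3 rose from 210.4 and 209.7 to 417 and 388 (0.94, adjusted p 7.74e-06) and Tfcp2l1 from 304 and 366 to 613 and 562 (0.81, adjusted p 5.04e-05). For each of these 3 factors EpiLCs were lowest, at 47.7 and 37.3, 32.4 and 27.7 and 76.7 and 83.4, so that the 3 stages stood in 1 order without overlap. Esrrb, an orphan nuclear receptor, rose from 465 and 427 to 682 and 657 (0.59), and Tdh, the threonine dehydrogenase of mouse pluripotent cells, from 84.1 and 84.3 to 129.7 and 129 (0.61). Manba, a lysosomal mannosidase, rose by 0.74, and Tcl1, a cofactor of Akt, by 1.09. Nr5a2, Tet2 and Lifr, the LIF receptor, made up the 10 with 0.44, 0.41 and 0.41. Members that did not pass include Zfp42 (Rex1), at 523 and 471 and 626 and 590.5. Counts of called members were 6 without day 2 replicate 1, 8 without day 2 replicate 2, 9 without day 4 replicate 1 and 7 without day 4 replicate 2. The test was no longer passed by Tcl1 (adjusted p up to 0.24) without day 2 replicate 1 or day 4 replicate 1, Nr5a2 (adjusted p up to 0.253) without any 1 of the 4 libraries, and Tet2 (adjusted p up to 0.233) without either day 2 library or day 4 replicate 2. Also affected was Lifr (adjusted p up to 0.309) without day 2 replicate 1 or day 4 replicate 2. In the list of core pluripotency genes, which naive and formative cells share, 1 of 10 was called lower, against 3.08% of all tested genes. Lin28b, the only one to pass, fell from 93.9 and 97 to 66.3 and 63.8 (-0.55). Pou5f1 (Oct4) was at 339 and 302 and 357 and 299.9 and Sox2 at 503 and 452 and 569.6 and 456. Nanog was at 438 and 427 at day 2 and at 683 and 493 at day 4 (adjusted p 0.0674), and it passed without day 4 replicate 2 (0.00194), with the replicate block (0.0384) and after quantile normalization (0.0433). The call was lost for Lin28b (adjusted p up to 0.0673) without day 2 replicate 2.

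Most genes of the formative epiblast list that passed the test fell. Of 23 tested, 12 were called lower, against 3.08% of all tested genes, and 1 higher, with a median of -0.49. Lef1, a transcription factor of the WNT pathway at chr3:131110471-131224356 on the plus strand, went from 259 and 265 in EpiLCs to 15.1 and 14.7 at day 2 and 0.859 and 3.19 at day 4, a log2 fold change of -2.51 (standard error 0.255, limma adjusted p 1.9e-06). Pou3f1 (Oct6), a POU factor of the formative state, went from 249 and 283 to 8.93 and 16.1 and then 2.36 and 1.39 (-2.20, adjusted p 3.04e-05). Dnmt3b, an enzyme of new DNA methylation, stood at 628 and 794, 106 and 136 and 46.2 and 57 (-1.21, adjusted p 1.3e-05). In all 3 the libraries of each stage lay below those of the stage before. The kinase gene Pim2 (-1.64), the WNT receptor Fzd2 (-1.67) and the zinc finger factor Sall2 (-1.33) fell as well. The others were Wnt8a, Sox3, Cldn6, Spry2, Dusp6 and Dnmt3a. Spry2 and Dusp6, both feedback inhibitors of FGF signalling, fell by less (-0.49 and -0.43), while Etv4, an ETS factor of the same pathway, was the member that rose (34.2 and 31.5 to 46.1 and 61.2, 0.68). Otx2, which holds back germ cell fate, was at 27 and 20.9 and 26.2 and 30.7 and did not pass the test. Without day 2 replicate 1 the counts were 9 lower and 1 higher, without day 2 replicate 2 they were 6 and 0, without day 4 replicate 1 they were 9 and 1, and without day 4 replicate 2 they were 10 and 0. Left-out libraries ended the call of Sox3 (adjusted p up to 0.279) and Spry2 (adjusted p up to 0.173) without day 2 replicate 2 or day 4 replicate 1, Wnt8a (adjusted p up to 0.225) without day 2 replicate 2, and Cldn6 (adjusted p up to 0.391) without either day 2 library or day 4 replicate 2. It was also lost for Dusp6 (adjusted p up to 0.165) without either day 2 library, and Etv4 (adjusted p up to 0.103) without day 2 replicate 2 or day 4 replicate 2.

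**Figure D2:**
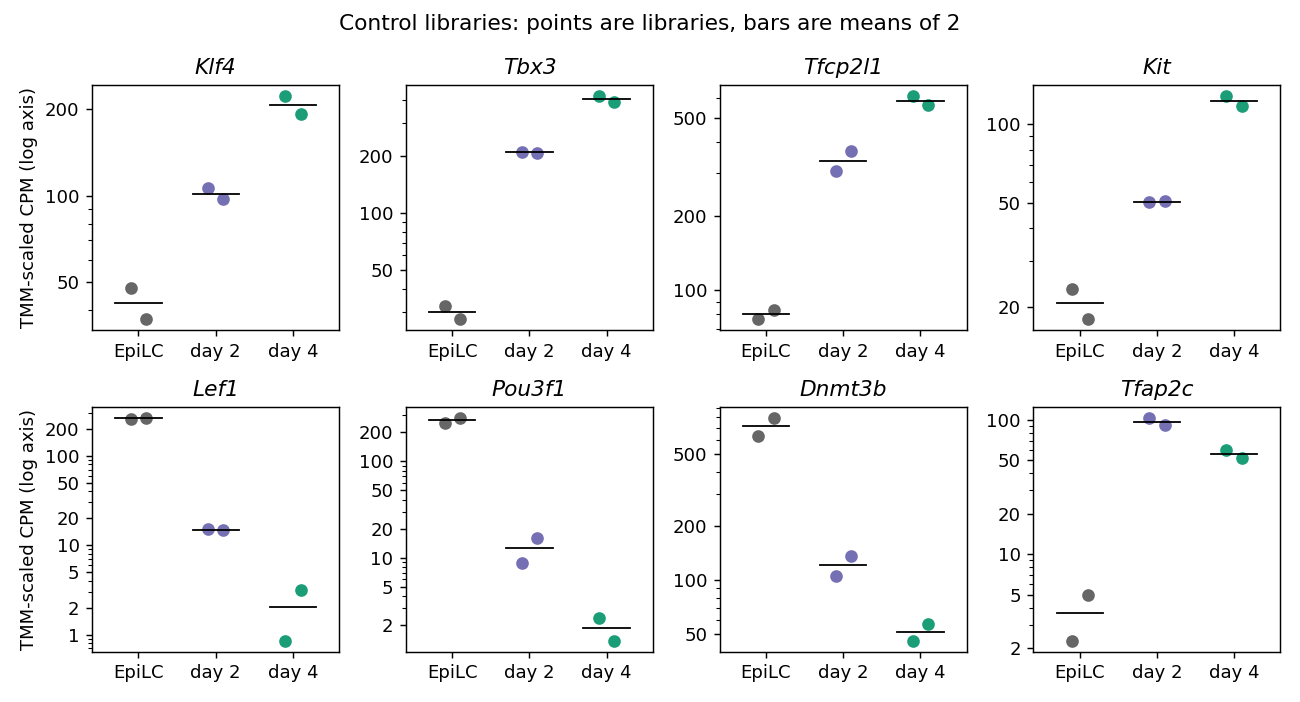
Values of 8 genes in each control library. Each panel has EpiLC, day 2 and day 4 on the horizontal axis and TMM-scaled CPM on a log axis, with 1 point per library and a bar at the mean of the 2. Klf4, Tbx3, Tfcp2l1 and Kit climb to day 4, Lef1, Pou3f1 and Dnmt3b descend from EpiLCs to day 4, and Tfap2c is highest at day 2.

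Signalling genes were called in both directions. In the WNT list 2 of 31 tested genes rose and 6 fell, against 2.44% and 3.08% of all tested genes, and 2 rose and 2 fell without day 2 replicate 2, or 2 and 7 without day 4 replicate 2. Sfrp1, a secreted inhibitor that binds WNT proteins, rose from 56.5 and 42.2 to 156 and 109.9 (1.40, limma adjusted p 5.69e-05). The receptor Fzd5 rose from 248 and 254 to 369.8 and 364 (0.55), whereas the receptor Fzd7 fell from 149 and 158 to 101 and 113 (-0.52), along with Fzd2. The ligands of the list were low, among them Wnt3 and Wnt8a. Wnt3 had 1.01 and 2.99 and Wnt8a 1.01 and 2.71 at day 2, and both had 1 read or none in each library at day 4. In the BMP list 2 of 21 fell, the target genes Id2 (45.4 and 49.3 to 32.8 and 16) and Msx1, and none was called without day 4 replicate 2. Lefty1, an inhibitor of NODAL, fell from 103 and 113 to 29 and 27.8 (-1.88, adjusted p 8.35e-06), and its relative Lefty2 had 266 and 222 and 212 and 188. Eomes, a T-box factor of mesoderm and endoderm, was the 1 member of 23 tested mesoderm and endoderm factors that rose (6.16 and 5.16 to 13.9 and 12.3, 1.08), and 3 fell, or 1 without day 2 replicate 2 and 2 without day 4 replicate 2. In the Notch list 1 of 18 rose and 4 fell, against 2.44% and 3.08%, and with 1 library left out 1 or 2 were called lower. The receptor Notch3 fell from 107 and 123 to 49.4 and 65.1 (-1.0, adjusted p 2.02e-05), and the ligands Jag1 and Dll1 and the modifier Lfng fell with it. Notch4 rose from 41.1 and 38.4 to 59.5 and 89 (0.86). Of 15 genes of insulin-like growth factor signalling, Igf2, Igfbp3 and Irs2 fell and none rose. The count was 4 without day 2 replicate 1, 1 without day 2 replicate 2 and 3 without either day 4 library. Igfbp3, which binds the ligands outside the cell, went from 15.1 and 18.9 to 5.05 and 4.88 (-1.58). With 1 library left out, the call did not hold for Fzd7 (adjusted p up to 0.0844), Wnt8a (adjusted p up to 0.225) and Irs2 (adjusted p up to 0.0906) without day 2 replicate 2, Wnt3 (adjusted p up to 0.262) and Igf2 (adjusted p up to 0.271) without day 2 replicate 2 or day 4 replicate 1, and Id2 (adjusted p up to 0.0739) without day 4 replicate 2. So it was for Msx1 (adjusted p up to 0.264) without day 2 replicate 2 or day 4 replicate 2, Notch4 (adjusted p up to 0.326) without either day 2 library or day 4 replicate 2, and Jag1 (adjusted p up to 0.258) without either day 2 library or day 4 replicate 1. A further loss was that of Dll1 (adjusted p up to 0.312) without any 1 of the 4 libraries, and Lfng (adjusted p up to 0.193) without day 2 replicate 1 or day 4 replicate 2.

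Of 18 genes of the DNA methylation machinery 2 rose and 3 fell, against 2.44% and 3.08% of all tested genes, and the 3 that fell are the genes of new methylation, Dnmt3b as given above, Dnmt3l and Dnmt3a. Dnmt3l, the cofactor without catalytic activity, went from 135 and 140.5 in EpiLCs to 21.5 and 21.3 at day 2 and 8.05 and 11.7 at day 4, a log2 fold change of -1.07 (standard error 0.156, limma adjusted p 0.000136). Dnmt3a fell from 126 and 136 to 101 and 101 (-0.37, adjusted p 0.0366). Zfp57, which guards methylation at imprinted regions, rose from 382 and 355 to 535 and 614 (0.64, adjusted p 0.000975). The second gene that rose, Tet2, oxidizes methylated bases and is also in the naive list. The test was no longer passed by Dnmt3a (adjusted p up to 0.27) without any 1 of the 4 libraries, and Tet2 (adjusted p up to 0.233) without either day 2 library or day 4 replicate 2. Without day 4 replicate 2 the list had 1 higher and 2 lower. None of 23 tested genes of PRC2 and H3K9 methylation passed the test.

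Imprinted genes, which are expressed from 1 parental copy, had 9 called lower of 34 tested, against 3.08% of all tested genes, and none higher, with a median of -0.38. Peg3, a paternally expressed zinc finger gene at chr7:6703892-6730431 on the minus strand, had 135 and 147 in EpiLCs, a higher 239 and 245 at day 2 and 90.9 and 102 at day 4, a log2 fold change of -1.32 (standard error 0.103, limma adjusted p 7.53e-08). Peg10, a gene derived from a retrotransposon, was lower at each stage, with 2504 and 2678 in EpiLCs, 816 and 1117 at day 2 and 239.7 and 335 at day 4 (-1.75). Cdkn1c (p57), an inhibitor of cyclin-dependent kinases, went from 29.7 and 38.4 to 3.76 and 5.48 (-2.65, adjusted p 9.73e-08), and its neighbour Phlda2 from 10.9 and 13 to 4.08 and 2.59 (-1.60). Sgce, which lies beside Peg10, fell from 5.79 and 7.74 to 2.26 and 2.69. Rian, a noncoding RNA of the Dlk1 to Dio3 domain, fell from 232 and 233 to 128 and 138 (-0.80), and Mirg of the same domain from 43.9 and 44.8 to 26.8 and 34.4. Igf2 and Usp29 were the others called. Usp29 (chr7:6730578-6967219) adjoins Peg3, and Igf2 (chr7:142650766-142666816) lies in the region of Cdkn1c (chr7:143458339-143461050) and Phlda2. The 9 genes called are thus grouped in neighbourhoods and are not 9 separate observations. Meg3, the third noncoding RNA there, had 232 and 231 at day 2 and 117 and 211 at day 4, so that its day 4 libraries disagreed and it did not pass (adjusted p 0.0513). It passed without day 4 replicate 2 (5.39e-06) and after median-ratio scaling (0.0394). The number called lower was 9 without day 2 replicate 1, 5 without day 2 replicate 2, 8 without day 4 replicate 1, where 1 gene was also called higher, and 9 without day 4 replicate 2. The call was lost for Sgce (adjusted p up to 0.0534) without day 2 replicate 2, Mirg (adjusted p up to 0.202) without either day 2 library or day 4 replicate 1, and Igf2 (adjusted p up to 0.271) without day 2 replicate 2 or day 4 replicate 1. Also affected was Usp29 (adjusted p up to 0.313) without any 1 of the 4 libraries.

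**Figure D3:**
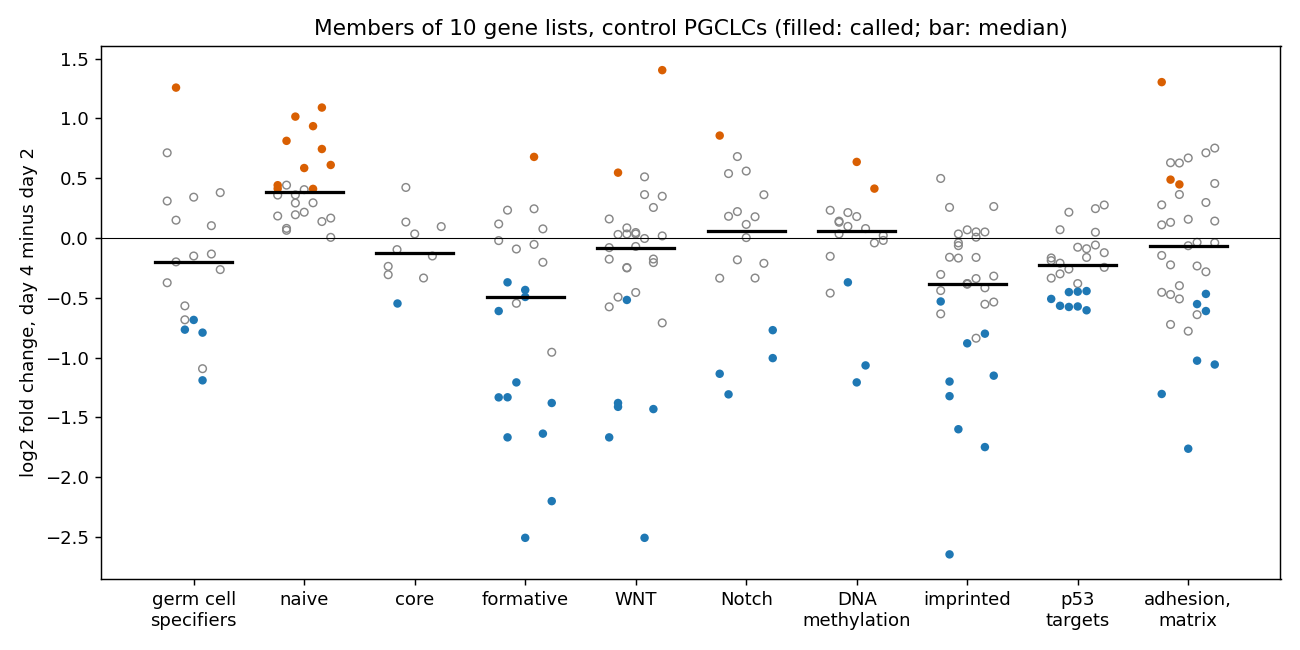
Log2 fold changes of the members of 10 gene lists in the control step. The vertical axis is day 4 minus day 2 on the log2(value + 1) scale; each point is 1 tested gene, filled where it was called, and the black bar is the list median. The naive pluripotency points all lie above 0, while the formative epiblast, imprinted and p53 target lists have medians of -0.49, -0.38 and -0.23.

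Among targets of p53, 8 of 26 tested genes fell, against 3.08% of all tested genes, and none rose. The median was -0.23, and 21 had a fold change below 0. p53 is the transcription factor that answers DNA damage and other stresses, and it binds a response element made of a pair of 10-base repeats. The p53 response element was searched in RefSeq promoters (250 bases before to 50 after the start, build GRCm38.p6), allowing 1 mismatch in all and up to 3 bases between the repeats. Its consensus reads the same on both strands, and overlapping matches were joined. The table held promoters of 21 of the 26 genes, and 3 genes had a match: Ccng1, Gtse1 and Cdkn1a. By promoters, 3 of the list's 28 held a match (10.7%), against 0.175% of 13697 promoters of tested genes and 0.219% of all 32851 available. The list was picked as targets of p53, so this share is no test. The sequences are shown because they are the promoters of the list in which the motif was found, with the match in capitals.
Ccng1 promoter, chr11:40755237-40755536, minus strand: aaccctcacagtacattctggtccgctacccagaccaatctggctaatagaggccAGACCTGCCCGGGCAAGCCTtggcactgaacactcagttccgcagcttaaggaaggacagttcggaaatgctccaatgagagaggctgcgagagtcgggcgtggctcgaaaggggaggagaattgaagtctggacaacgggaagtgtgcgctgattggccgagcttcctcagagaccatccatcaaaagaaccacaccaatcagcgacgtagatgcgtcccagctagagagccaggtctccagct
Gtse1 promoter, chr15:85859696-85859995, plus strand: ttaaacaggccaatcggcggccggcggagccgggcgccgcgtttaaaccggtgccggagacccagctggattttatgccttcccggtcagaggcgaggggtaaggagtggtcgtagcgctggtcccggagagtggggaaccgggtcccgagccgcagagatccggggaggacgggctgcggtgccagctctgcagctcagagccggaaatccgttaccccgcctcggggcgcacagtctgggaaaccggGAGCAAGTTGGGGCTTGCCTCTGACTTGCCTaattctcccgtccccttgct
Cdkn1a promoter, chr17:29090729-29091028, plus strand: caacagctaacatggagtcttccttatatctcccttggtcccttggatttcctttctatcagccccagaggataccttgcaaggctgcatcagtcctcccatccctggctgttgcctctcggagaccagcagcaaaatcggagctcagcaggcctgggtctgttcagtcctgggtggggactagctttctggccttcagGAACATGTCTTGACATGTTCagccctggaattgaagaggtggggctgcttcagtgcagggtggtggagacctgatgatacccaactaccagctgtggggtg
A match is a description of the letters and not evidence of binding. Of these 3 genes, Ccng1, cyclin G1, fell from 360.1 and 357 to 313 and 221 (-0.44, limma adjusted p 0.0346). Cdkn1a (p21), which arrests the cell cycle, had 54.6 and 45.5 and 51.7 and 44.2, and Gtse1, a regulator of p53 in G2 phase, had 147 and 167 and 147 and 141, and neither passed the test.

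Among the other members, Mdm2, the ligase that degrades p53, fell from 235 and 233 to 163 and 165 (-0.51, standard error 0.0972, limma adjusted p 0.00206). Perp, a membrane protein of p53-driven cell death, fell from 58.2 and 57.9 to 40.0 and 37.8 (-0.57, adjusted p 0.00201). Phlda3, which restrains Akt, fell from 103 and 90.4 to 67.6 and 61.5 (-0.58, adjusted p 0.00178). In each of the 3 both day 4 libraries were below both day 2 libraries. Trp53inp1 (-0.45), the kinase gene Plk2 (-0.57) and the cell death genes Bbc3 (Puma, -0.45) and Pmaip1 (Noxa, -0.60) completed the 8. The gene of p53 itself, Trp53, had 148 and 147 at day 2 and 155 and 189 at day 4 (adjusted p 0.293), and was called higher without day 4 replicate 1 (0.36, adjusted p 0.0446). The count of members called lower was 3 without day 2 replicate 1, 3 without day 2 replicate 2 and 4 without day 4 replicate 2. It was 10 without day 4 replicate 1, with 1 called higher, and 0 without the variance trend, as no member kept an adjusted p under 0.05. Left-out libraries ended the call of Ccng1 (adjusted p up to 0.312) and Plk2 (adjusted p up to 0.155) without either day 2 library or day 4 replicate 2, Phlda3 (adjusted p up to 0.0561) without day 2 replicate 1, and Trp53inp1 (adjusted p up to 0.188) without day 2 replicate 2 or day 4 replicate 2. Likewise it was lost for Bbc3 (adjusted p up to 0.206) without any 1 of the 4 libraries, and Pmaip1 (adjusted p up to 0.13) without either day 2 library or day 4 replicate 1.

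Junction and matrix genes changed in both directions. Of 37 tested genes of adhesion and matrix 3 rose and 7 fell, against 2.44% and 3.08% of all tested genes. The counts were 1 and 5 without day 2 replicate 1, 1 and 4 without day 2 replicate 2, 6 and 9 without day 4 replicate 1 and 4 and 5 without day 4 replicate 2. Zeb1, a repressor of epithelial genes, rose from 14 and 13.4 to 31.9 and 39 (1.30, limma adjusted p 0.000104). The integrin subunits Itga5 and Itga6 rose by 0.49 and 0.45. The tight junction gene Cldn7 fell from 29.2 and 31.6 to 14.7 and 13.4 (-1.06), the keratin Krt18 from 18.4 and 18 to 6.98 and 6.57 (-1.30) and the laminin chain Lamb1 from 72.2 and 72.5 to 36.8 and 33.3 (-1.03). E-cadherin, Cdh1, was at 535 and 544 and 503 and 473 and did not pass the test. With 1 library left out, the call did not hold for Itga5 (adjusted p up to 0.133) without either day 2 library or day 4 replicate 2, and Itga6 (adjusted p up to 0.0897) without either day 2 library.

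Calls in the growth and metabolism lists are to be read against the 2.44% higher and 3.08% lower of all tested genes. In the cell cycle list 2 of 38 rose and 2 fell. Ccnd2, cyclin D2, fell from 18.7 and 19.5 to 6.66 and 6.67 (-1.39, limma adjusted p 1.58e-05) and Ccnd3, cyclin D3, rose from 107 and 119.8 to 189 and 159 (0.61). Among 34 genes of glycolysis and hypoxia 2 rose and 3 fell, among them Ldha, which makes lactate (189 and 186 to 135 and 109, -0.63), and Vegfa, a growth factor induced by low oxygen (35 and 27.4 to 56.9 and 58.6, 0.88). Of 37 genes of the ATF4 response 2 rose and 1 fell, and of 25 genes of cholesterol synthesis none passed. Cytosolic ribosomal proteins had 1 call in 84, Rps24, which was higher, and a median of 0.11. Without day 4 replicate 2 they had 6 called higher. Genes of oxidative phosphorylation had 3 calls in 77, all higher, against 2.44% of all tested genes, with a median of 0.18. The 3 were Atp5g3, Cox6b2 and Sdhc, and each of them lost its call without day 4 replicate 2 (adjusted p 0.25, 0.0525 and 0.167), where 5 other genes of the list were called higher. Atp5g3 also lost it without day 2 replicate 1 (0.459), Cox6b2 without day 2 replicate 2 (0.0976) and Sdhc without either day 2 library (0.0928 and 0.115). The Hox clusters had 10 tested genes, of which Hoxc12 rose (1.63 and 1.63 to 5.58 and 4.68) and Hoxa3 and Hoxa5 fell. The test was no longer passed by Ccnd3 (adjusted p up to 0.0501) and Rps24 (adjusted p up to 0.122) without day 2 replicate 1, Vegfa (adjusted p up to 0.134) without day 2 replicate 2, and Hoxc12 (adjusted p up to 0.138) and Hoxa3 (adjusted p up to 0.223) without any 1 of the 4 libraries. So it was for Hoxa5 (adjusted p up to 0.183) without either day 2 library or day 4 replicate 1.

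Markers of other cells were present at levels that differed by list. Their calls are to be read against the 2.44% higher and 3.08% lower of all tested genes. Of 18 genes of visceral and definitive endoderm 5 were high enough to be tested and none was called. The list summed to 10.3 and 10.6 at day 2 and 14.5 and 10.3 at day 4. Among 22 genes of endothelium and blood 7 were tested, Gata2 (24.4 and 22 to 7.41 and 7.97) and Tek fell, and the globin genes Hba-x, Hbb-bh1, Hba-a1 and Hbb-y were at 0 in all 4 libraries. The list summed to 124 and 118 at day 2 and 125 and 123 at day 4, most of it from Pecam1, an adhesion protein that pluripotent cells also carry (77.1 and 73.8 to 101 and 91.2). Of the 20 mesenchyme genes 10 were tested and 2 were called lower. The list summed to 47.5 and 62.4 at day 2 and 21.9 and 26.9 at day 4. Most of the day 2 sum was Tagln, an actin-binding protein of smooth muscle (12.1 and 20.2 to 3.22 and 2.29, -2.16), and Myl9, a myosin light chain (22.6 and 21.2 to 7.30 and 8.26, -1.38), while Postn was at 0 and Dcn at 1 read or none. The neural list summed to 123 and 126 at day 2 and 136 and 110.2 at day 4, against 47.3 and 53.3 in EpiLCs. Of 6 tested genes in it, Nes (49.4 and 50.9 to 20.3 and 16.6) and Map2 fell and Tubb3 rose (46.4 and 41.9 to 88 and 64.7). Neurog2 and Olig2 were at 0. Surface ectoderm and trophoblast genes summed to 155 and 155 at day 2 and 108 and 119 at day 4. Of 11 tested, Eomes rose and Grhl2 and Krt18 fell. Krt5 and Tpbpa were at 0. The call was lost for Tek (adjusted p up to 0.18) without either day 2 library or day 4 replicate 1, Map2 (adjusted p up to 0.25) without any 1 of the 4 libraries, and Tubb3 (adjusted p up to 0.0967) without day 2 replicate 2 or day 4 replicate 1. The part of such cells in the other results was not tested.

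The same step was measured in the vector lines, which share no sample with the control libraries and were made with another library kit. Calls there numbered 3509 among 15255 tested genes (23.0%), with 1694 up (11.1%) and 1815 down (11.9%). Of the 395 control increases that were also tested there, 220 were called higher again (55.7%), against 11.5% of all 14388 genes tested in both. Of the 488 control decreases 239 were called lower again (49.0%), against 12%. Taken from the other side, these are 13.3% of the vector lines' increases and 13.8% of their decreases. Opposite calls were made for 9 of the increases and 41 of the decreases. Without day 2 replicate 1 of the control cells 267 genes were called in the same direction in both, 246 without day 2 replicate 2 and 335 without day 4 replicate 2, instead of 459.

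In the vector lines more naive genes were called higher than lower, and more formative genes lower than higher. Tbx3 went from 175, 192 and 195 in the 3 vector lines at day 2 to 381, 457 and 414 at day 4 (log2 fold change 1.15, limma adjusted p 3.65e-09), against 0.94 in control cells. In the vector lines 15 of 24 naive genes rose and 2 fell, against 11.1% and 11.9% of all genes tested there, with a median of 0.48 against -0.01 over all genes tested there. Of the formative genes 3 rose and 13 fell, with a median of -0.52. Dnmt3b fell from 275, 200.3 and 180.1 to 83.2, 76.7 and 73 (-1.46), and Zeb1 rose from 9.77, 8.01 and 8.33 to 33.6, 35.9 and 33 (1.86). Lef1 was at 12.5, 5.55 and 5.90 at day 2 in the vector lines and at 11, 5.85 and 4.11 at day 4 and was not called there (-0.18, adjusted p 0.541).

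Other lists had calls in the opposite direction in the vector lines. Of 25 p53 targets tested there 11 rose and 1 fell, against 11.1% and 11.9% of all genes tested there, with a median of 0.30, where the control cells had 8 of 26 lower. Mdm2 went from 217, 267 and 270.1 to 334, 349.6 and 359.7 (log2 fold change 0.47, limma adjusted p 0.000121), and Perp from 58.9, 55.2 and 56.8 to 83.8, 88.6 and 91.8 (0.62). Both genes rose in each of the 3 lines and were lower at day 4 in both control replicates. Imprinted genes had 7 higher and 7 lower of 34, against the same 11.1% and 11.9%. Peg10 rose from 321, 331 and 290.5 to 697, 712 and 684 (1.15), where it fell by 1.75 in the control cells, and Dnmt3l from 15.1, 7.09 and 6.21 to 15, 21.6 and 24.3 (1.09), where the first value of each is the empty-vector line. Mesoderm and endoderm factors had 9 of 22 higher and 2 lower, against the same shares, and Dazl, which missed the threshold in the control cells, rose from 4.74, 12.9 and 8.02 to 16.1, 46.3 and 37.5 (1.81, adjusted p 3.2e-07). Dnmt3l thus rose in the Tex10-overexpressing clones and not in the empty-vector line. The 2 tables were scaled separately and differ in kit, vector, treatment and, in 2 of the 3 lines, Tex10 overexpression. The difference between the experiments was therefore not tested, and kit, vector, treatment and Tex10 overexpression cannot be told apart.

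**Figure D4:**
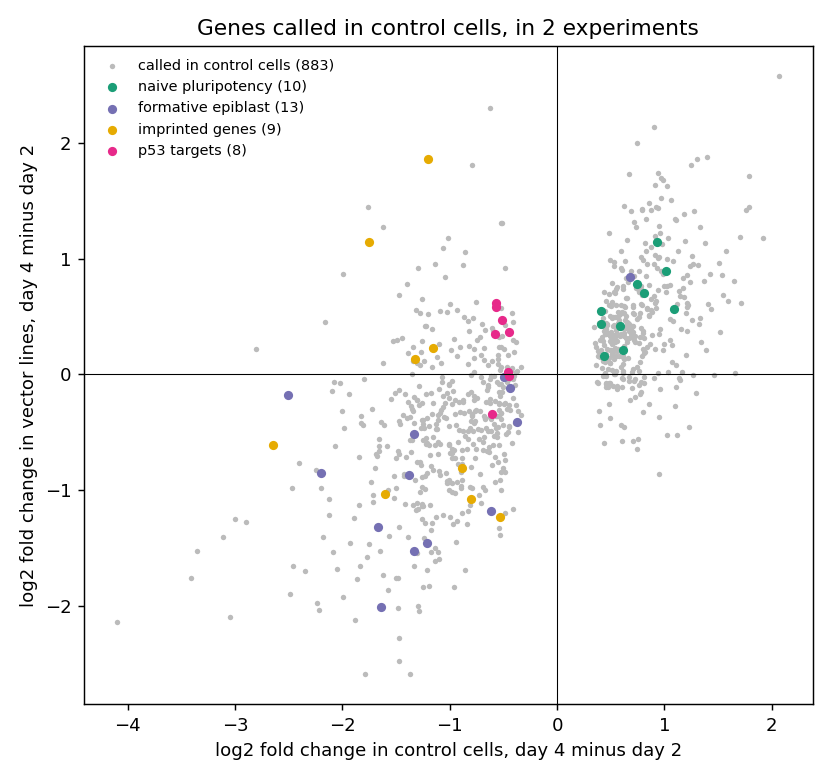
Log2 fold change from day 2 to day 4 in control cells (horizontal axis) and in the vector lines (vertical axis) for the 883 called genes tested in both. Grey points are all such genes, and naive pluripotency, formative epiblast, imprinted and p53 target genes are coloured. Of these genes 718 have the same sign in both, and the called p53 targets lie on the left, mostly above 0.

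In the same experiment the cells given dTAG13 took the step with 1271 called genes (7.65%), 571 higher (3.44%) and 700 lower (4.22%). Of the 405 control increases 137 were called higher there too (33.8%), and of the 511 decreases 184 were called lower (36.0%), which is 24% and 26.3% of the dTAG13 calls in each direction. Opposite calls were made for 14 genes. The difference of the steps was tested directly. It was called for 208 genes (1.25%), more positive with dTAG13 in 128 (0.771%) and more negative in 80 (0.482%), and 109 of the 208 were also called in the control step, which is itself a term of the difference. This count moved with the settings. It fell to 0 without the variance trend (2013 genes had an unadjusted p under 0.05 with it), and it was 239 in edgeR and 281 in DESeq2. Leaving out 1 library gave 101 and 95 without day 2 DMSO replicates 1 and 2, 366 without day 4 DMSO replicate 2, 49 and 115 without day 2 dTAG13 replicates 1 and 2, and 44 without day 4 dTAG13 replicate 2. The control and dTAG13 cells of this table share the EpiLC libraries in the fit but no day 2 or day 4 library.

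The control step enters the difference with the opposite sign, so genes that fell in control cells are favoured among positive differences. Tagln fell in control cells, as given above, and had 46.3 and 49.6 at day 2 and 58.5 and 91.7 at day 4 with dTAG13 (difference of steps 2.76, standard error 0.339, limma adjusted p 0.000158). Has2 had 24.1 and 23.5 and 9.53 and 17 with dTAG13 (difference 2.51, adjusted p 0.00255). Myl9 (2.24), Dtx4, a ubiquitin ligase (1.97), and the ligand Wnt7b (1.94) were next. Wnt7b fell from 15.5 and 24.3 to 7.84 and 6.87 in control cells and had 26.1 and 28.8 and 39.6 and 47.8 with dTAG13. Its control call was lost without day 2 replicate 2 (adjusted p 0.0718), and that of Plxdc1 without day 2 replicate 2 or either day 4 library (up to 0.204). On the other side Sfrp1, which rose in control cells, had 10.4 and 11.4 and 8.95 and 6.52 with dTAG13 (difference -1.86, adjusted p 0.00117), and Tcl1 had 8.24 and 5.89 and 4.25 and 2.38 against 14.5 and 21.4 and 42 and 35.6 in control cells (difference -2.01, adjusted p 0.00828). Dtx1, a Notch pathway gene (-2.04), Tnfrsf1b, a receptor for tumour necrosis factor (-1.86), and Plxdc1 (-1.82) completed this group. Dtx1 and Tnfrsf1b did not pass the test in the control step (adjusted p 0.183 and 0.0938). Gja1 was at 234 and 242 and 239 and 278 with dTAG13 (difference 1.59, adjusted p 1.21e-05).

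Among the lists, 6 of 26 p53 targets had a called difference, all positive, against 0.771% of all tested genes. Of these, Mdm2, Perp, Phlda3, Plk2 and Trp53inp1 had fallen in control cells, which by itself favours a positive difference. As given above, no gene had a called difference without the variance trend. With dTAG13, 3 of the 26 rose from day 2 to day 4 and none fell, against 3.44% and 4.22%. Mdm2 had 1196 and 1158 at day 2 and 1244 and 1402 at day 4 with dTAG13, against the control values of 235 and 233 and 163 and 165, and the difference of its steps was 0.68 (limma adjusted p 0.0131). Perp (0.95, adjusted p 0.0027) and Phlda3 (0.86, adjusted p 0.0051) differed in the same direction. Tfap2c, which fell in control cells, had 158 and 157 at day 2 and 183 and 204 at day 4 with dTAG13 (difference 1.09, adjusted p 0.0351). Of the naive genes 11 rose and 3 fell with dTAG13, and the difference was called for Tcl1, Tdh and Gbx2. Of the formative genes 9 fell and none rose, and of the imprinted genes 10 fell and none rose.

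**Figure D5:**
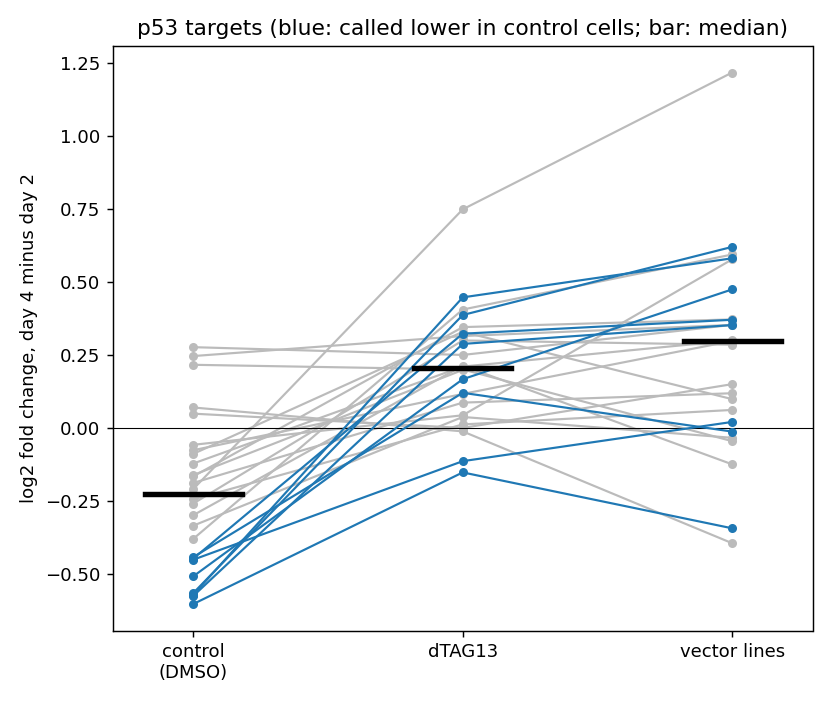
Log2 fold change from day 2 to day 4 of the 26 p53 targets in control cells, dTAG13 cells and, for 25 of them, the vector lines. Each line joins the values of 1 gene on the log2(value + 1) scale, and the black bars are the medians, -0.23, 0.20 and 0.30. Genes called lower in control cells are drawn in blue, a choice that fixes their place in the first column.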

How the data were processed

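RNA was taken up in Trizol, per the labels' protocols, and libraries of the DMSO and dTAG13 experiment were made with the NuGEN Ovation mouse kit, those of the vector lines with the Tecan Universal Plus kit. The submitters' processing notes name Bowtie2 2.3.4.3, SAMtools 1.9, HTSeq 0.11.2, edgeR 3.26.8 and build mm10, with no role or order. The annotation and the strand setting of the counting are not given in the sources used here. The deposited values are a signal per gene, which the authors scaled by TMM per the file names, and each library's low values were whole multiples of 1 step (100% within 0.05 read). The step of day 4 replicate 2 lies near 0.1, so that whole reads are harder to tell from rounding there. They are therefore TMM-scaled CPM, from which dividing by the step recovers reads.

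From these values log2(value + 1) was fitted in limma 3.58.1 (R 4.3.3) with a variance trend. The 10 libraries of the control table entered as 5 group means. The control step, the dTAG13 step and their difference were contrasts of that fit. The 12 libraries of the vector table entered as stage means with line as a covariate. Genes with a table mean of at least 1 were tested, p-values were adjusted by Benjamini-Hochberg over all of them, with calls made at adjusted values under 0.05. Adjusted p-values in the text come from these limma fits, unless another setting or a left-out library is named beside them. The fits were also run on simulated data, whose outcome is not given here and is used for no result. Alternatives were pseudocounts, filters, scalings, edgeR 4.0.16 and DESeq2 1.42.0 on recovered reads, a replicate block, fewer libraries in the fit and 1 library left out.

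Named genes are the 12 largest increases and decreases with no overlap of libraries and a mean of at least 5 (predicted genes, clones and pseudogenes left out), the 5 lowest adjusted p-values in each direction, the 5 largest differences between the dTAG13 and DMSO steps in each direction, and members of the gene lists. Genes named otherwise are said to be. The members and lists were chosen with earlier results of these data known. Of the tested genes 16358 matched the GENCODE vM21 annotation by symbol and 247 did not.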

Additional observations from a re-analysis of the deposited data

Results flagged for a closer look

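The step from day 2 to day 4 differed between dTAG13 and DMSO cells in 208 genes by the direct limma test, 1.25% of all tested. Of 153 genes named in the text 35 were among them, a set that holds the 10 genes named for having the largest differences and many chosen for their change in control cells. The difference, dTAG13 minus DMSO on the log2 scale, was positive in Tagln (2.76), Has2 (2.51), Myl9 (2.24), Dtx4 (1.97), Wnt7b (1.94), Fgfr2 (1.77) and Hoxa3 (1.73). It was also positive in Cdkn1c (1.72), Chst15 (1.68), Gata2 (1.65), Prtg (1.63), Gja1 (1.59), Fzd2 (1.52), Jun (1.76), Egr1 (1.44) and Irs2 (1.11). Smaller positive differences were seen in Tfap2c (1.09), Notch3 (1.06), Plk2 (1.02), Perp (0.95), Phlda3 (0.86), Nes (0.85), Trp53inp1 (0.77) and Klf6 (0.77). The smallest were in Mdm2 (0.68) and Junb (0.67). It was negative in Dtx1 (-2.04), Tcl1 (-2.01), Tnfrsf1b (-1.86), Sfrp1 (-1.86), Plxdc1 (-1.82), Gbx2 (-1.66), Tdh (-1.12), Lefty2 (-1.03) and Tns1 (-0.94). The count moved between 0 and 366 with the settings.

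In 22 of the 152 named genes that were tested in both experiments, both day 4 control libraries lay on one side of both day 2 libraries and all 3 vector lines went the other way. Among all 14388 genes tested in both this was so for 1009 (7.01%), and the named genes were largely chosen for their change. This difference was not tested, since the tables were scaled separately. Of the genes called lower in control cells, the log2 fold change in the vector lines was 1.86 in Igf2, 1.28 in Jun, 1.15 in Peg10, 0.95 in Dll1, 0.92 in Wnt7b, 0.87 in Egr1, 0.78 in Ccnd2, 0.69 in Gata2, 0.66 in Fos and 0.62 in Perp. For the others it was 0.58 in Plk2, 0.47 in Mdm2, 0.45 in Tagln, 0.44 in Klf6, 0.37 in Trp53inp1, 0.35 in Phlda3, 0.29 in Irs2 and 0.23 in Sgce. Of those called higher, it was -0.60 in Rps24. Genes not called in the control step were Dtx1 (-0.44 in the vector lines), Gtse1 (0.30 in the vector lines) and Nanog (-0.23 in the vector lines).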

How the results depend on the processing

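The count of 916 genes called in the control step kept within 1.5 times under other pseudocounts, a mean of at least 5, other scalings, edgeR, DESeq2 and a fit of the 8 PGCLC libraries. It was 341 with no filter on low values, 445 without the variance trend, 551 with only the 4 DMSO libraries and 355 with an added fold change of at least 1 on the log2 scale. Leaving out 1 library gave 425 to 1104. Of these settings, those with fewer libraries also have fewer degrees of freedom, and for the others the cause was not tested. The difference of the dTAG13 and DMSO steps, 208 genes, was called for 16 with no filter, 0 without the variance trend, 118 with the added fold change, and 44 to 366 with 1 library left out. The vector lines had 3509 called genes, 2238 without the variance trend, 580 with the added fold change, 1564 without clone 1 and 1614 without clone 2. The 459 genes called alike in both experiments became 246 to 528 with 1 control library left out and 99 with the added fold change in both. The labels do not say whether same-numbered libraries of the 2 control groups belong together. Their deviations correlated at 0.0927 over 2 pairs, too few to settle it. With the replicate block 902 genes were called in the step and 201 in the difference. Of 142 called genes followed by name none changed sign under these settings, and 65 kept their call under each. The call was lost for 60 of the 142 with no filter on low values and for 61 without the variance trend. Many genes were lost in both, among them Tfap2c (limma adjusted p 0.194 with no filter), Krt18, Id2, Klf6, Fzd7, Dnmt3a and Tet2. Changes of sign were limited to uncalled genes. With 1 control library left out, Cdkn1a ranged from -0.188 to 0.0706, Gbx2 from -0.108 to 0.441, Prdm1 from -0.299 to 0.0313, Pou5f1 from -0.0919 to 0.160, Sox2 from -0.0647 to 0.256 and Tex10 from -0.0752 to 0.0148. Pou5f1 was also at -0.0057 after median-ratio scaling and -0.0043 in DESeq2. Depth limits the low genes: 3 reads are a value of 0.299 to 0.407, and 165 of the called genes had a mean under 5.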

Other observations

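Among immediate-early genes, which cells switch on within minutes of a stimulus, 6 called lower at day 4 in control cells were singled out after their values were seen. No list of such genes was counted or tested. Jun went from 34.2 and 39.9 at day 2 to 11 and 11.7 at day 4 (log2 fold change -1.63, limma adjusted p 1.7e-07), Egr1 from 48.9 and 37.3 to 7.09 and 13.9 (-1.99, adjusted p 2.26e-06) and Fosb from 10.7 and 8.14 to 0.215 and 0.797 (-2.81, adjusted p 1.83e-06). Fos, Junb and Klf6 were called lower as well, at -1.26, -0.49 and -0.70. Left-out libraries ended the call of Fos (adjusted p up to 0.209) without day 2 replicate 1 or day 4 replicate 1, and Junb (adjusted p up to 0.0862) without either day 2 library. With dTAG13, Jun had 132 and 157 and 151 and 165 (difference of steps 1.76, adjusted p 7.2e-05). In the vector lines Jun rose from 53, 29.7 and 29.7 to 145, 73 and 66.3 (1.28, adjusted p 2.16e-09) and Egr1 rose by 0.87 (adjusted p 2.55e-06), and the difference from the control cells was not tested. Jun overlaps the antisense gene Junos, whose reads cannot be told apart from its own without strand, and Junb overlaps Prdx2.

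Genes of the X chromosome were called lower more often than higher, a split that was looked at after the values were seen. Of 567 tested X-linked genes 5 were called higher (0.882%) and 43 lower (7.58%), with a median of -0.06. Of 15775 autosomal genes 394 were called higher (2.50%) and 462 lower (2.93%), with a median of 0.04. In the vector lines 38 of 527 X-linked genes were called higher (7.21%) and 106 lower (20.1%), against 11.7% and 11.6% of the autosomal genes. With dTAG13 the shares were closer, with 16 X-linked genes called higher (2.82%) and 39 lower (6.88%), against 3.49% and 4.14% of the autosomal genes. Xist, the RNA that silences an X chromosome, had 129 and 138 in EpiLCs, 5.41 and 5.02 at day 2 and 1.72 and 2.99 at day 4 (-0.92, limma adjusted p 0.000983). It was not called in a fit of only the 4 DMSO libraries (adjusted p 0.124), and its reads cannot be told apart from those of the overlapping Tsix. The Y-linked genes Ddx3y, Kdm5d, Uty and Eif2s3y were at 0 in all 4 control libraries.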
